A study of Mus musculus with 8 samples.

Results

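The genes described here are 9 haematopoietic cytokine receptor genes of the mouse: Csf2ra, Csf2rb, Csf2rb2, Csf3r, Il3ra, Il6st, Il1r1, Ifngr1 and Ifnar1. They were chosen by name, with earlier results of these data known. Each was found once among the 55487 genes listed in every count file. RNA was measured in 8 bulk libraries of sorted mouse haematopoietic stem cells (HSCs), the cells from which all blood lineages descend. A group of 4 libraries is labelled NTC, a non-target control, and a group of 4 is labelled miR652-KD, a knockdown of the microRNA miR-652. The series title concerns pseudouridine synthase 10 and ageing of these cells, but the labels give no age, strain, sort markers or knockdown method, and no agent shared by both groups. Nor do they say whether replicates came from separate animals, so p-values reflect only the library-to-library spread, which may be technical.

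Cytokine receptors carry no kinase of their own in most of these families. A ligand brings chains together, Janus kinases bound to their tails phosphorylate them, and STAT proteins then move to the nucleus, while the IL-1 receptor instead recruits MyD88 and activates NF-kB. In HSCs such receptors are known for linking infection and inflammation to proliferation and to myeloid output. Ligand-specific alpha chains often share a signalling chain: in the mouse the beta chain encoded by Csf2rb serves GM-CSF, IL-3 and IL-5, its close relative encoded by Csf2rb2 serves IL-3 alone, and gp130, encoded by Il6st, serves the IL-6 family.

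Since miR-652 was the knockdown target, its mature arms are shown with their seed, bases 2 to 8, in capitals. Both sequences are from RefSeq (GRCm38.p6) and lie on the plus strand of chromosome X, the 3p arm at chrX:142739060-142739080 and the 5p arm at chrX:142739020-142739043.
mmu-miR-652-3p: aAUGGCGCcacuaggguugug
mmu-miR-652-5p: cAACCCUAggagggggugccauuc
The heptamers searched on the sense strand of the longest annotated 3′ UTR of each gene were GCGCCAT for the 3p arm and TAGGGTT for the 5p arm. These heptamers pair with bases 2 to 8. The 3p heptamer was in 0 of the 9 receptor genes and in 2.58% of 11615 tested coding genes. The 5p heptamer was in 3 of the 9 and in 8.61% of those coding genes. Csf2rb and its close relative Csf2rb2 are among the 3, so their matches may not be independent. The 3′ UTRs of the 9 ran from 585 to 5641 bases, and the coding genes were not matched to them in length. Heptamers that pair with a shorter seed stretch followed by A were searched as well, and Il6st held 1 for each arm. With these included, 1 of 9 receptor genes matched the 3p arm (3.53% of coding genes) and 4 of 9 the 5p arm (14.37%). The 3 matches to bases 2 to 8 are shown with the heptamer in capitals; they lie at chr15:78349467-78349473 in Csf2rb (plus strand), chr15:78283840-78283846 in Csf2rb2 (minus strand) and chr1:40313914-40313920 in Il1r1 (plus strand), on GRCm38.
Csf2rb: gggctgttTAGGGTTtacaa
Csf2rb2: ggtctgttTAGGGTTgaaga
Il1r1: ggattctgTAGGGTTcactc
These are matches of letters, not measured sites of binding. The differences of these 3 genes between the groups are given with the other receptors below, and none passed the test.

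Counts assigned to genes came to 14.02 to 16.76 M (M, the SI prefix mega) for NTC libraries, against 14.68 to 19.89 M for miR652-KD, and every receptor gene passed the filter on low counts. Levels are in CPM, counts per M counts in genes. Over all 14360 tested genes, edgeR's quasi-likelihood test called 6 (0.0418%) at an adjusted p below 0.05, 4 higher and 2 lower in miR652-KD. The 12 HSC markers were all detected well enough to be tested and summed to 2452 to 3053 CPM in NTC, against 2518 to 2753 CPM in miR652-KD. Of these markers 5 had a log2 fold change above 0 and 7 below, with a median of -0.08 and 0 past the threshold. Groups did not overlap for 2 of them, Ly6a (0.62) and Kit (-0.34). On CPM, 4.5% of all tested genes had groups without overlap. Markers of other cells were also present. The 16 neutrophil genes summed to 570.1, 2959, 9629 and 14950 CPM across NTC replicates 1 to 4. Across miR652-KD replicates 1 to 4 they summed to 4932, 933.3, 635.2 and 836.0 CPM. The 12 erythroid genes summed to 4194 to 7973 CPM in NTC, against 1798 to 4562 CPM in miR652-KD. A single gene, Car2, held much of these sums. It had 1783 of 4194, 2169 of 7973, 1974 of 4347 and 1298 of 5501 CPM across NTC replicates 1 to 4. Across miR652-KD replicates 1 to 4 it had 1760 of 1798, 2147 of 2269, 1889 of 2084 and 2216 of 4562 CPM. Of the erythroid genes 10 of 12 had a log2 fold change below 0, with a median of -2.41 and 0 past the threshold. The haem synthesis gene Alas2 (-2.88) and the globin gene Hbb-bt (-2.68) had groups without overlap. None of the 16 neutrophil or 12 erythroid genes was at 0 in all libraries. Among the T and NK cell genes Cd3e, Cd3g, Cd8a, Trbc2 and Ncr1 were at 0 in all 8.

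Ordered by level per kilobase of exon (RPKM), Ifngr1 and Csf3r led, and Il6st, Csf2rb, Il1r1 and Csf2rb2 had the 4 lowest means. Ifngr1, the ligand-binding chain for interferon gamma, had 70.8 ± 20.8 RPKM (SD over the 8 libraries, as in the rest of this paragraph). Csf3r, the G-CSF receptor, had 35.7 ± 13.5 RPKM and was below Ifngr1 in 8 of 8 libraries, although their ranges overlapped. Csf2ra, the GM-CSF alpha chain, had 20.99 ± 4.14 RPKM and was below Csf3r in 6 of 8. These 3 genes stood above 93.98%, 87.64% and 79.57% of tested genes in level per length. Ifnar1, a chain of the type I interferon receptor, had 10.1 ± 2.29 RPKM, and Il3ra, the IL-3 alpha chain, had 4.21 ± 1.23 RPKM. The range of Csf2ra did not meet that of Ifnar1, and that of Ifnar1 did not meet that of Il3ra. Il6st had 2.72 ± 0.809 RPKM, Csf2rb 2.59 ± 1.14 RPKM and Il1r1, the signalling IL-1 receptor, 2.25 ± 0.898 RPKM. These 3 overlapped throughout, and their order was not the same in every library: Csf2rb was below Il6st in 5 of 8 and above Il1r1 in 3 of 8. Csf2rb2 was lowest with 1.41 ± 1.10 RPKM.

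**Figure D1:**
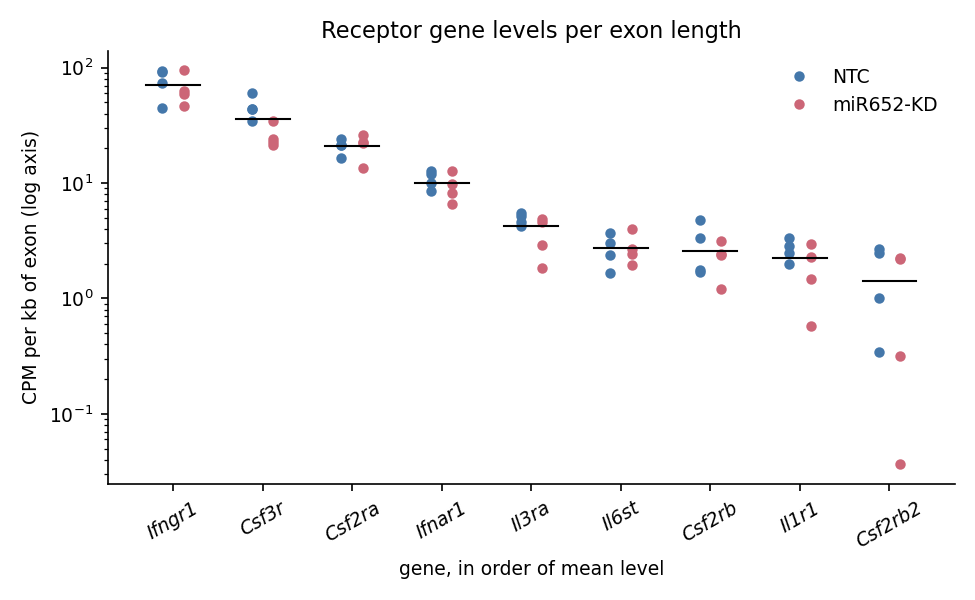
Level per kilobase of exon (CPM per kb, log axis) of the 9 receptor genes, in order of their mean over 8 libraries (black line), with 1 point per library in NTC (blue) and miR652-KD (red). Ifngr1 has the highest mean, 70.8, and Csf2rb2 the lowest, 1.41, with its lowest point in miR652-KD replicate 4.

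Of the 9 receptor genes, 0 passed the edgeR threshold in either direction, and 1 of 9 had an unadjusted p below 0.05, against 5.99% of all tested genes. In 7 of 9 the log2 fold change, miR652-KD relative to NTC, was below 0, and their median was -0.34. Over all tested genes 50.47% were below 0, and the median was 0.00. On CPM the 2 groups overlapped for 9 of 9 receptor genes, while 4.5% of tested genes had groups without overlap.

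**Figure D2:**
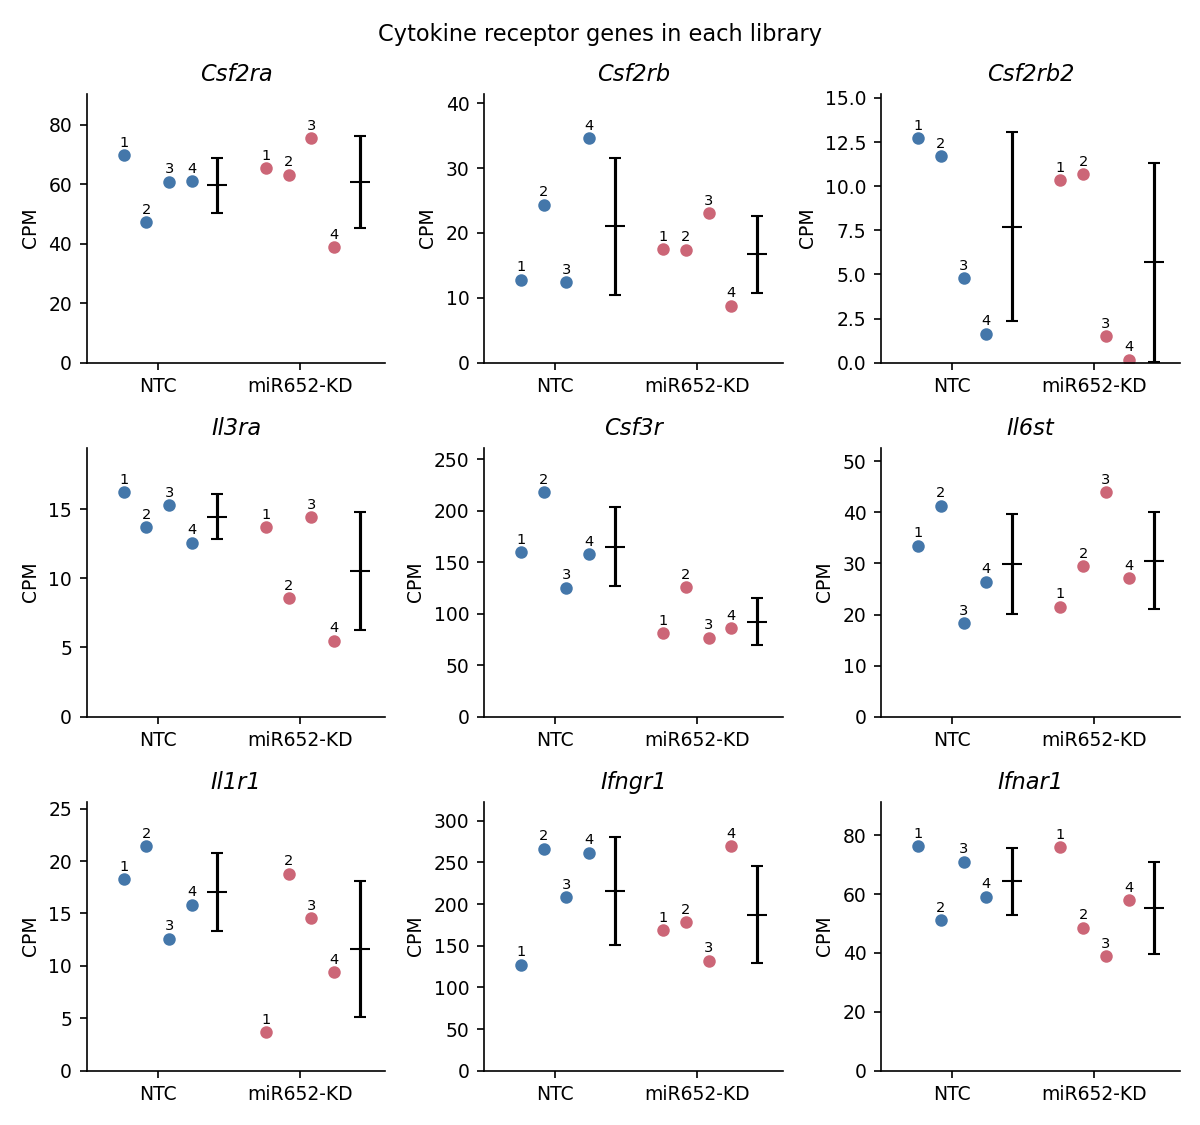
CPM of each receptor gene in the 4 NTC (blue) and 4 miR652-KD (red) libraries, numbered by replicate, with the group mean ± SD in black. Csf3r is the gene whose groups come closest to separating, and the groups of the other 8 overlap more.

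Csf3r (ENSMUSG00000028859.14, chr4:126024550-126044440) encodes the receptor for G-CSF, the cytokine that drives neutrophil production and HSC mobilisation. It had 159.5, 217.7, 125.1 and 158.0 CPM in NTC replicates 1 to 4. Across miR652-KD replicates 1 to 4 it had 81.28, 125.5, 76.6 and 86.04 CPM. The groups met only where NTC replicate 3 and miR652-KD replicate 2 were nearly equal, and the 3 other miR652-KD libraries were below every NTC library. Means were 165 ± 38.5 and 92.4 ± 22.5 CPM (SD, n = 4 each). The log2 fold change was -0.84 (SE 0.21) and did not pass the edgeR quasi-likelihood test (adjusted p = 0.598). With TMM scaling the lowest NTC value was 125.85 and the highest miR652-KD value 125.67 CPM, so the groups no longer overlapped, as was true of 4.39% of tested genes. DESeq2 called 0.425% of tested genes, and Csf3r was the 1 receptor gene among them (adjusted p = 0.0302). In bulk libraries fewer cells of a type and less RNA per cell cannot be told apart.

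Neutrophils express Csf3r strongly, and all 10 tested neutrophil markers had a log2 fold change below 0, with a median of -4.18 and 0 of 10 past the threshold. The part of neutrophil RNA in the Csf3r values was not tested. The neutrophil sums rest on different genes in different libraries. In NTC replicate 1, which had the lowest sum, Prtn3 held 558.7 of 570.1 CPM. In miR652-KD replicate 1 Mpo and Elane held 1979 and 1920 of 4932 CPM. S100a9, an abundant neutrophil protein gene, reached 774.9 CPM (NTC replicate 3) and 1186 CPM (NTC replicate 4), while the other 6 libraries had 2.152 to 11.71 CPM. Elane, a granule protease gene of earlier neutrophil stages and the most abundant of the tested markers, was high in other libraries too, with 0.471, 982.6, 1311 and 2535 CPM across NTC replicates 1 to 4 and 1920, 4.317, 0.1005 and 9.868 CPM across miR652-KD replicates 1 to 4. Without NTC replicates 3 and 4 the log2 fold change of Csf3r was -1.03 (adjusted p = 0.870, edgeR), with 2 NTC libraries left, of which NTC replicate 2 held that Elane level.

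**Figure D3:**
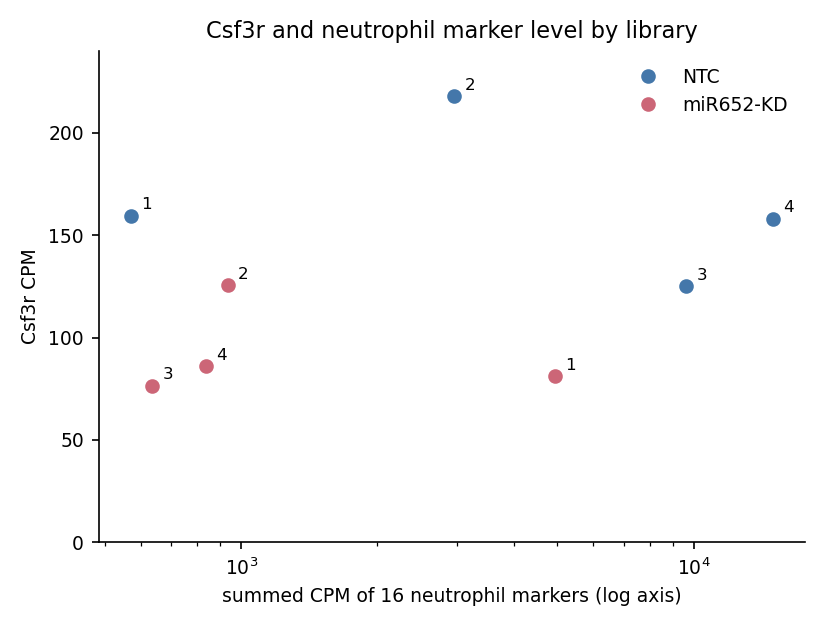
Csf3r level (CPM) against the summed level of 16 neutrophil marker genes (CPM, log axis) in each library, numbered by replicate, for NTC (blue) and miR652-KD (red). The neutrophil sum runs from 570.1 in NTC replicate 1 to 14950 in NTC replicate 4. The Csf3r level runs from 76.6 in miR652-KD replicate 3 to 217.7 in NTC replicate 2.

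For Csf3r the count can hold reads of a copy. Of the 50-base windows of its transcript, 11.5% also occur in transcripts of other genes, 9.5% in the processed pseudogene AC105061.2 (chromosome 19). At 100 bases the shared part was 0.4%, and the pseudogene itself had 0.302 to 0.547 CPM.

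The receptors for GM-CSF and IL-3 pair an alpha chain with a beta chain. Csf2ra (ENSMUSG00000059326.7, chr19:61223957-61228429) had 69.75, 47.3, 60.91 and 61.02 CPM in NTC, against 65.54, 63.23, 75.5 and 38.84 CPM in miR652-KD. The miR652-KD libraries held both the highest and the lowest of the 8 values. Group means were 59.7 ± 9.27 and 60.8 ± 15.6 CPM (SD, n = 4 each), and the log2 fold change was 0.03 (SE 0.22; edgeR adjusted p = 0.999). It changed sign, to between -0.09 and -0.01, when NTC replicate 2 or miR652-KD replicate 1 or 3 was left out.

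Il3ra (ENSMUSG00000068758.8, chr14:14346275-14356011) had 16.21, 13.7, 15.27 and 12.57 CPM in NTC, against 13.69, 8.572, 14.43 and 5.482 CPM in miR652-KD. The NTC libraries lay close together, while miR652-KD replicates 2 and 4 were below all of them. Group means were 14.4 ± 1.62 and 10.5 ± 4.26 CPM (SD, n = 4 each). The log2 fold change of -0.45 (SE 0.38) did not pass (edgeR adjusted p = 0.989).

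Csf2rb (ENSMUSG00000071713.6, chr15:78325752-78353847), the shared beta chain, had 12.78, 24.33, 12.41 and 34.57 CPM in NTC. In miR652-KD it had 17.51, 17.39, 23.07 and 8.772 CPM. NTC replicate 4 was the highest and miR652-KD replicate 4 the lowest library. Its log2 fold change was -0.34 (SE 0.43; edgeR adjusted p = 0.998), and it was 0.02 when NTC replicate 4 was left out.

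Csf2rb2 (ENSMUSG00000071714.7, chr15:78282507-78305721), the IL-3-specific beta chain, varied most of the 9 genes. It had 12.71, 11.7, 4.772 and 1.64 CPM in NTC, from 189, 164, 80 and 24 counts. It had 10.36, 10.7, 1.508 and 0.1731 CPM in miR652-KD, from 152, 176, 30 and 3 counts. In both groups replicates 1 and 2 were high and replicates 3 and 4 low, and the highest library stood 73.4 times above the lowest. Its log2 fold change was -0.43 (SE 1.07; edgeR adjusted p = 0.999), so the group difference was smaller than its error. Leaving out miR652-KD replicate 4 brought it to -0.03, and adding the replicate number as a block brought it to -1.21.

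Csf2rb and Csf2rb2 are neighbours on chromosome 15, on opposite strands, and their coding sequences were identical at 95.2% of 2631 aligned positions. The pair is shown at 150 coding bases with many differences, the 18 differing bases in capitals, and at 150 bases where they are identical. The first is the least identical stretch among those without alignment gaps and within a single exon of each gene. The first stretch lies at chr15:78338802-78338951 in exon 5 of Csf2rb and at chr15:78294380-78294529 in exon 4 of Csf2rb2 (GRCm38, each on its gene's strand).
Csf2rb: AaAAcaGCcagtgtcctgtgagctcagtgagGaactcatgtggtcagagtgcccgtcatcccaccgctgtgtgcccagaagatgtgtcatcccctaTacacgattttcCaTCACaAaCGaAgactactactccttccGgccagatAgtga
Csf2rb2: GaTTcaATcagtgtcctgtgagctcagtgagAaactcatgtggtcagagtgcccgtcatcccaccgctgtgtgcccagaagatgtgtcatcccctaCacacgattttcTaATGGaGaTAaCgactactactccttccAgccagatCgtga
The stretch both genes share lies at chr15:78348577-78348726 in exon 15 of Csf2rb and at chr15:78284722-78284871 in exon 14 of Csf2rb2.
Csf2rb and Csf2rb2: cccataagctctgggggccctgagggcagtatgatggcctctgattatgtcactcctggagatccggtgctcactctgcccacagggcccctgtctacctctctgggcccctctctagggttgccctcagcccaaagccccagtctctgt
A read lying wholly in such a stretch cannot be assigned to 1 gene. Of the 50-base windows 18.4% of the Csf2rb transcript occur in Csf2rb2 and 19.0% of the Csf2rb2 transcript occur in Csf2rb, and of the 100-base windows 7.0% and 7.2%. Counts of both genes are thus uncertain, but read length was not given, so these shares do not say by how much. How reads matching both were handled was not stated in the sources used here.

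The share of the pair's counts that fell on Csf2rb2 was 49.9%, 32.5%, 27.8% and 4.53% in NTC replicates 1 to 4 and 37.2%, 38.1%, 6.13% and 1.94% in miR652-KD replicates 1 to 4, by library. The exact 95% binomial interval was 44.7% to 55.0% for the highest and 0.401% to 5.55% for the lowest of these. Such intervals cover counting error only, and they treat every read as independent. The libraries carry no molecular identifiers, so copies of the same molecule could not be told apart and the intervals may be too narrow. Both groups held libraries with a high and with a low share. Summed into 1 row, the pair had 28.7 ± 9.19 CPM in NTC, against 22.4 ± 9.09 CPM in miR652-KD (SD, n = 4 each), with a log2 fold change of -0.36 (SE 0.39; edgeR adjusted p = 0.995).

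**Figure D4:**
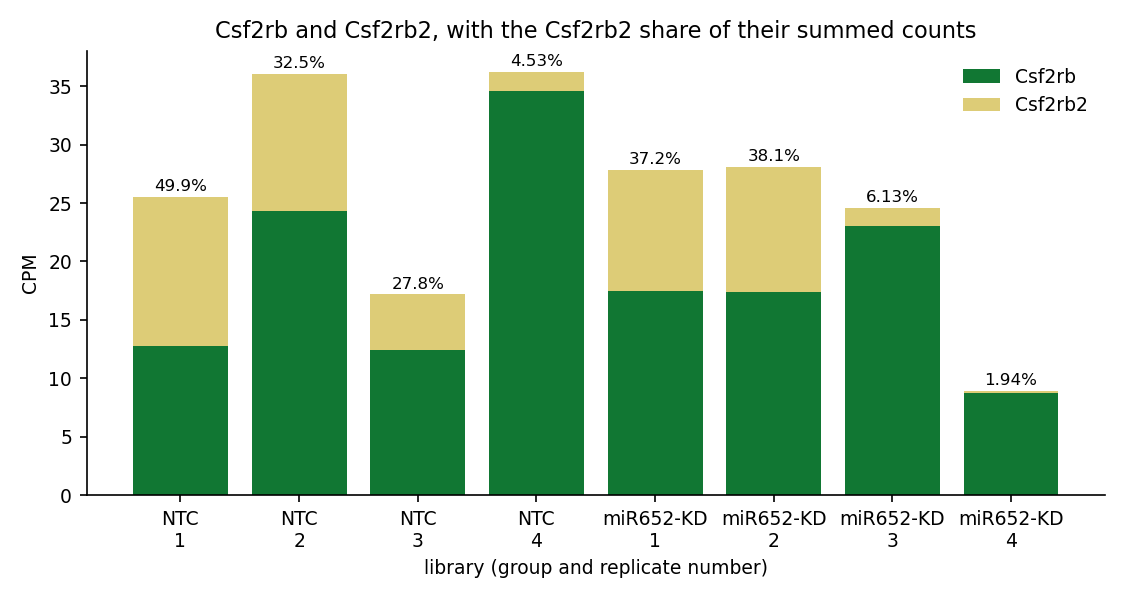
Level (CPM) of Csf2rb (green) and Csf2rb2 (sand) stacked for each library, with the Csf2rb2 share of their summed counts printed above each bar. The share runs from 49.9% in NTC replicate 1 to 1.94% in miR652-KD replicate 4, with low shares in both groups.

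Per length, the GM-CSF alpha chain stood 4.47 to 13.8 times above the shared beta chain (median 9.35 over 8 libraries). Il3ra was 0.892 to 3.11 times Csf2rb and 1.28 to 50.6 times Csf2rb2. In the same libraries Il5ra, the alpha chain for IL-5 and the remaining partner of the shared beta chain, was at 0. The genes Csf2, Il3 and Csf3, which encode GM-CSF, IL-3 and G-CSF, were likewise at 0 in all 8 libraries.

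Il6st (ENSMUSG00000021756.12, chr13:112464070-112510086) encodes gp130, the shared signalling chain for IL-6, IL-11, IL-27, oncostatin M and related cytokines. It had 33.5, 41.31, 18.25 and 26.44 CPM in NTC, against 21.53, 29.49, 43.93 and 27.18 CPM in miR652-KD. Each group spanned nearly the full range of the other. The log2 fold change of 0.03 (SE 0.31; edgeR adjusted p = 0.999) turned to between -0.19 and -0.02 when NTC replicate 3, NTC replicate 4 or miR652-KD replicate 3 was left out, and to -0.29 without both NTC libraries.

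The ligand-binding chains beside gp130 differed widely in level. Per length Il11ra1, for IL-11, had 36.1 ± 8.64 RPKM and Il27ra, for IL-27, 17.4 ± 2.13 RPKM, both above Il6st in 8 of 8 libraries. Il6ra, for IL-6, had 1.15 ± 0.522 RPKM and was below Il6st in 8 of 8. The genes Osmr and Cntfr were at 0 in all 8, and Lifr reached 5.945 CPM in a single library at most and was too low to test. Il27ra had 54.8 ± 5.55 CPM in NTC, against 66.9 ± 1.31 CPM in miR652-KD (SD, n = 4 each) without overlap. Its log2 fold change of 0.29 (SE 0.15) did not pass (edgeR adjusted p = 0.884). Il11ra1 had a log2 fold change of 0.16 and Il6ra of -0.12.

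Il1r1 (ENSMUSG00000026072.12, chr1:40225080-40317257) encodes the receptor through which IL-1 signals, known in HSCs for driving myeloid differentiation. It had 18.29, 21.4, 12.59 and 15.85 CPM in NTC, against 3.679, 18.79, 14.53 and 9.406 CPM in miR652-KD. The low values were those of miR652-KD replicates 1 and 4, and the other 2 lay within the NTC range. Group means were 17.0 ± 3.74 and 11.6 ± 6.53 CPM (SD, n = 4 each). The log2 fold change was -0.56 (SE 0.47; edgeR adjusted p = 0.989) and -0.26 without miR652-KD replicate 1. Il1rap, the accessory chain that completes the IL-1 receptor, had 12.2 ± 8.38 and 9.14 ± 3.30 CPM, and per length Il1r1 stood 1.11 to 6.87 times above it. The decoy receptor gene Il1r2 ranged from 0 to 6.484 CPM, with a log2 fold change of 1.5 (SE 1.47).

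Ifngr1 (ENSMUSG00000020009.13, chr10:19591949-19610229) had 127.2, 266.6, 208.7 and 261.9 CPM in NTC, against 168.4, 178.3, 132.2 and 269.3 CPM in miR652-KD. The lowest value was in NTC and the highest in miR652-KD. Group means were 216 ± 64.8 and 187 ± 58.3 CPM (SD, n = 4 each), with a log2 fold change of -0.21 (SE 0.27; edgeR adjusted p = 0.999). For a gene of its level Ifngr1 was variable. Its SD of log2 CPM within groups was 0.46, above that of 98.8% of the 1000 tested genes nearest to it in level, whose median was 0.21. For the other 8 receptor genes that percentage ran from 22.4% for Il3ra to 83.1% for Csf2rb2.

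The second chain of the interferon gamma receptor, Ifngr2, is the one that brings JAK2 to the complex. It had 20.58, 28.11, 26.37 and 25.08 CPM in NTC, against 46.06, 43.23, 29.66 and 30.18 CPM in miR652-KD. All 4 miR652-KD libraries were above all 4 NTC libraries. This log2 fold change, 0.58 (SE 0.24), did not pass (edgeR adjusted p = 0.832). Per length, Ifngr1 stood 8.18 to 13.8 times above Ifngr2 in NTC (median 11.5) and 4.84 to 11.8 times in miR652-KD (median 5.68), so the ratios overlapped.

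Ifnar1 (ENSMUSG00000022967.13, chr16:91485238-91507441) had 76.21, 51.08, 71.05 and 59.17 CPM in NTC, against 75.83, 48.58, 38.9 and 57.88 CPM in miR652-KD. The highest library of each group was nearly equal, and miR652-KD replicate 3 was lowest. Group means were 64.4 ± 11.4 and 55.3 ± 15.7 CPM (SD, n = 4 each), with a log2 fold change of -0.21 (SE 0.23; edgeR adjusted p = 0.995). Its partner Ifnar2, the high-affinity chain for type I interferon, had 83.6 ± 16.3 and 69.3 ± 6.57 CPM and a log2 fold change of -0.26 (SE 0.17). Per length Ifnar1 was 0.347 to 0.562 times Ifnar2, below it in 8 of 8 libraries. Ifnar1 lies in a row of receptor genes on chromosome 16, between Il10rb (chr16:91406164-91425834) and Ifngr2 (chr16:91547072-91565623). Il10rb, a chain of the IL-10 receptor, had 47.8 ± 8.01 CPM in NTC, against 29.6 ± 8.89 CPM in miR652-KD (SD, n = 4 each) without overlap. Its log2 fold change was -0.68 (SE 0.27; edgeR adjusted p = 0.811), opposite in sign to that of Ifngr2, and neither passed.

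**Figure D5:**
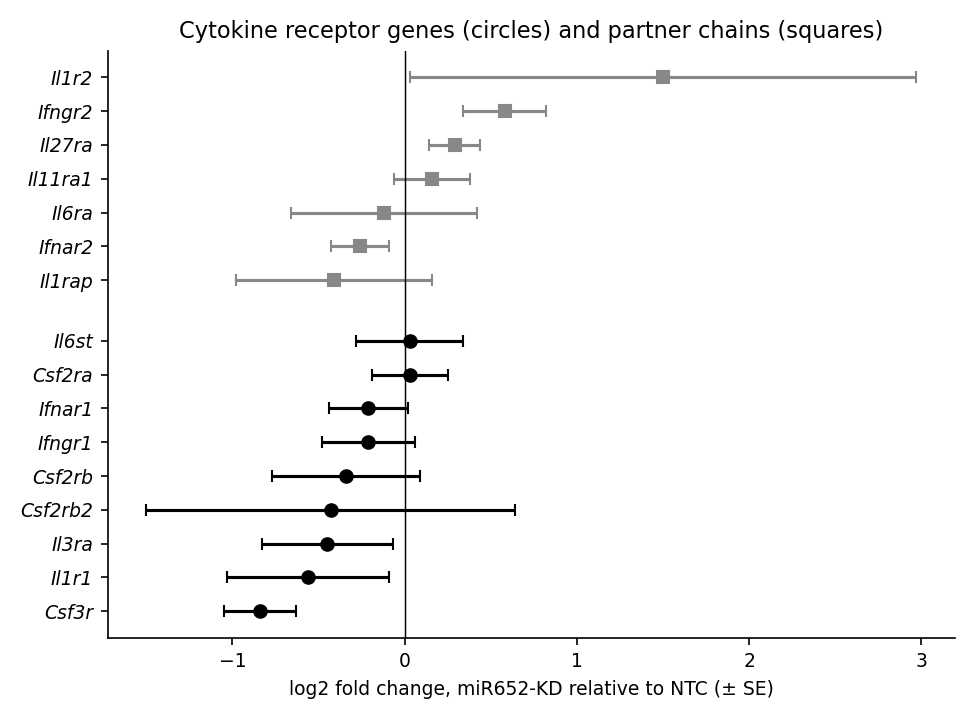
Log2 fold change, miR652-KD relative to NTC, ± SE of the 9 receptor genes (black circles) and 7 tested partner chains (grey squares), from the edgeR fit over all tested genes. Csf3r has the lowest value, -0.84, and none of the 16 genes passed the threshold.

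Within miR652-KD, replicate 4 was the lowest of the 8 libraries for Csf2ra, Csf2rb, Csf2rb2 and Il3ra and the highest for Ifngr1. With that library left out the log2 fold changes were 0.19 for Csf2ra, -0.24 for Il3ra and -0.44 for Ifngr1.

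The wider receptor set gave no calls either. Of 11 partner chains 7 were tested, 4 of them above 0, with a median of 0.16. Of 28 other cytokine and growth factor receptors of blood cells 19 were tested, 14 of them below 0, with a median of -0.21 and 0 past the threshold. Those with the smallest p were Kit, Il18rap and Il10rb. Kit, the stem cell factor receptor, had 518 ± 99.6 CPM in NTC, against 408 ± 23.3 CPM in miR652-KD (SD, n = 4 each) without overlap, a log2 fold change of -0.34 (SE 0.12; edgeR adjusted p = 0.782). Il18rap, a chain of the IL-18 receptor, had a log2 fold change of -0.96 (SE 0.34), with 85.12 CPM (NTC replicate 3), 91.9 CPM (NTC replicate 4) and 26.02 to 40.02 CPM in the remaining libraries.

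Of 19 ligand genes 4 were tested and 9 were at 0 in all libraries, among them Il1a, Il1b and Ifng. Osm, which encodes oncostatin M, had 21.5 ± 4.66 CPM in NTC, against 9.58 ± 10.8 CPM in miR652-KD (SD, n = 4 each), a log2 fold change of -1.16 (SE 0.66; edgeR adjusted p = 0.918). Ctf1 and Clcf1, which encode further ligands of gp130 receptors, had log2 fold changes of 0.43 and 0.44.

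Downstream of the receptors, 18 of 19 kinases, adaptors and STATs were tested, 9 above and 9 below 0, with a median of -0.01 and 0 calls. Stat3, used by gp130 and the G-CSF receptor, had a log2 fold change of -0.27 (SE 0.14), and Traf6, an adaptor of IL-1 signalling, of -0.58 (SE 0.38). All 14 feedback inhibitors were tested with a median of 0.08 and 0 calls. Socs2, an inhibitor induced by STAT5, had a log2 fold change of 0.36, Pias1, an inhibitor of STAT proteins, of -0.31, and the phosphatase gene Ptpn11 of 0.64.

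Target genes of each pathway were read from the same fit. Of 11 tested STAT5 targets 6 were above 0, with a median of 0.06 and 0 calls. Ccnd2, the cyclin D2 gene, had 692 ± 70.4 CPM in NTC, against 925 ± 65.6 CPM in miR652-KD (SD, n = 4 each) without overlap, a log2 fold change of 0.42 (SE 0.08; edgeR adjusted p = 0.438). Pim1, a survival kinase gene in both the STAT5 and STAT3 lists, had a log2 fold change of -0.37 (SE 0.15) without overlap. Of 10 tested STAT3 targets 6 were below 0, with a median of -0.31 and 0 calls. Lrg1, a gene of granulocytes, had the largest difference there, -4.75 (SE 2.05), with values from 0 to 50.36 CPM in NTC. Mcl1, a survival gene, stood at -0.29 (SE 0.16). Of 14 tested NF-kB targets of IL-1 signalling 9 were below 0, with a median of -0.22 and 0 calls. Nfkbia, the inhibitor that NF-kB induces, had a log2 fold change of -0.22 (SE 0.09) without overlap, the chemokine gene Ccl4 of -0.53 (SE 0.23) and Nfkbie, a further NF-kB inhibitor gene, of 0.64 (SE 0.34).

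Among the target lists, that for interferon gamma was the 1 with genes past the threshold. All lists were chosen with earlier results of these data known, so this is a description and no test of a pathway. Over all tested genes 0.0418% were called and 50.47% were below 0. Of 25 type I interferon targets, all tested, 16 were above 0, with a median of 0.10 and 0 calls. Ifit3, an interferon-induced gene, had 0.799 ± 0.280 CPM in NTC, against 4.89 ± 3.13 CPM in miR652-KD (SD, n = 4 each) without overlap, a log2 fold change of 2.60 (SE 0.88; edgeR adjusted p = 0.779), and the nucleic acid sensor gene Zbp1 had one of 0.87 (SE 0.39). Of 21 tested interferon gamma targets 19 were above 0, with a median of 0.43. The edgeR threshold was passed by 3, all higher: H2-Aa (1.00, adjusted p = 0.0241), H2-Eb1 (1.40, adjusted p = 0.0241) and Cd74 (1.21, adjusted p = 0.0476). These encode MHC class II chains and the invariant chain that escorts them, which antigen-presenting cells also express. Leaving out any 1 library, or adding the replicate block, left 0 genes past the threshold, these 3 included. Without the 5 class II genes, a split chosen after their values were seen, 14 of 16 were above 0, with a median of 0.26 and 0 calls. The 13 macrophage and dendritic cell markers summed to 74.0 to 170 CPM in NTC, against 99.2 to 152 CPM in miR652-KD, with Xcr1 at 0, and the 9 B cell markers to 52.5 to 141 and 54.6 to 161 CPM. Both marker sums overlapped between the groups. Cd68, a macrophage and dendritic cell marker, did not overlap, with a log2 fold change of 0.99 (SE 0.27; edgeR adjusted p = 0.681). Of 7 tested genes of its list 4 were above 0, with a median of 0.05. The B cell gene Ighm stood at 2.40 (SE 0.82), with overlapping groups. The other B cell genes tested, Cd79b and Vpreb1, were at -0.10 and -1.83. The part of these cells in the class II values was not tested.

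For the 5 receptor genes whose log2 CPM had an SD of at least 0.5 over the 8 libraries, the coding genes with the most similar profile were listed among 10341 with a mean of at least 5 CPM. The measure was the root mean square difference of centred log2 CPM, and it is a description. Nearest to Csf3r were Klf3 (0.19), Smap2 (0.21) and Sergef (0.23), against a median of 0.63 for the genes searched. Nearest to Il3ra were Rmnd5a (0.14), Cdk16 (0.15) and Bcor (0.16), against 0.62. For Csf2rb they were Zfp40 (0.23), 1600014C10Rik (0.23) and Ankrd40 (0.24), against 0.70, and for Il1r1 Haus6 (0.30), Plekha1 (0.31) and Ksr1 (0.33), against 0.84. Csf2rb2 had no close neighbour: Qprt (0.86), Spata2 (0.89) and Cabyr (0.91) came first, against a median of 1.87. Csf2rb was thus not among the genes most like its paralog.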

How the data were processed

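Per the labels' protocols, HSCs were sorted into lysis buffer and libraries were made by Smart-seq2 with Tn5 tagmentation. The deposited files hold raw read counts per gene, not normalized. The submitters' processing notes name HISAT2 2.1.0, HTSeq 0.11.2, DESeq2 and the mm10 build; annotation release, strand setting and read length: not given in the sources used here. The 5 summary lines of each file entered neither the library sizes nor the fits; reads outside genes came to 9.69% to 16.94% and ambiguous reads to 8.94% to 12.28% of each file. Identifiers were matched without version to GENCODE M21; 93 were not found.

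Counts were tested with edgeR 4.0.16 (R 4.3.3): filterByExpr at a minimum count of 10 and total of 15, TMM scaling, robust quasi-likelihood fits of group, and Benjamini-Hochberg adjustment over all tested genes, called below 0.05. SE was taken as the absolute log2 fold change over the root of the F statistic. CPM use the total of all gene counts; log2 CPM use a prior count of 2; RPKM use the union of annotated exons. The procedure was tested on simulated data.

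The receptor genes and all lists were chosen with earlier results of these data known. Named were all 9 receptor genes, from each pathway list the members past the threshold and the 3 of smallest p, partner chains of at least 5 CPM, and from each marker list the tested member of highest CPM; other genes named were chosen after their values were seen. Some genes that the rule names are not reported here. Alternatives were RLE and upper-quartile scaling, totals alone, 2 other filters, DESeq2 1.42.0, limma-voom (limma 3.58.1), non-robust fits, the replicate block, the paralogs summed, and libraries left out.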

Additional observations from a re-analysis of the deposited data

How the results depend on the processing

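The count of genes past the threshold was 6, and it was 61 with DESeq2, 0 with the replicate block, 0 without NTC replicates 3 and 4 together and 0 to 0 with each library left out, where 789 to 992 genes had an unadjusted p below 0.05 (733 with the replicate block, 884 without both NTC libraries). It was 5 to 7 under the other scalings, filters and fits. DESeq2 called 1 receptor gene, Csf3r (-0.84, adjusted p = 0.0302), and every other alternative run called 0. Over all alternatives its edgeR, limma or DESeq2 adjusted p ran from 0.0302 to 0.875. The cause was not tested. Near 0, signs turned. With 1 library left out Csf2ra ran from -0.09 to 0.19, below 0 where NTC replicate 2 (-0.05), miR652-KD replicate 1 (-0.01) or miR652-KD replicate 3 was dropped. Il6st ran from -0.19 to 0.25, below 0 where NTC replicate 3 (-0.14), NTC replicate 4 (-0.02) or miR652-KD replicate 3 was dropped, and reached -0.29 with both NTC libraries dropped. Csf2rb ran from -0.53 to 0.02, above 0 where NTC replicate 4 was dropped. The 6 other receptor genes kept their direction in all alternatives run, and the median over the 9 was -0.42 to -0.19. Same-numbered libraries did not deviate together (correlations of -0.033 to -0.01, and -0.03 to 0.046 for other pairs), so the numbers were not taken as pairs; the replicate block gave -0.83 for Csf3r. Csf2rb2 had the lowest counts of the 9, with 3 in miR652-KD replicate 4, a library of 17.33 M counts.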

Other observations

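Markers of other blood and niche cells, summed per library, overlapped between the groups. The 10 monocyte genes summed to 708.4 to 2421 CPM in NTC, against 778.9 to 1046 CPM in miR652-KD, with Cx3cr1 at 0. Of 5 tested, 3 were above 0, with a median log2 fold change of 0.12, and the most abundant, the lysozyme gene Lyz2, was at -0.66. The 10 megakaryocyte genes summed to 347.6 to 552.5 CPM in NTC, against 332.6 to 519.1 CPM in miR652-KD, and 6 of 8 tested were above 0, with a median of 0.17. Vwf, the von Willebrand factor gene, stood at 0.53, and the integrin gene Itgb3, without overlap between the groups, at -0.92 (SE 0.19; edgeR adjusted p = 0.470). The 10 T and NK cell genes summed to 155 to 463 CPM in NTC, against 123 to 243 CPM in miR652-KD, and the 2 tested were Nkg7 at -0.83 and Klrb1c at 0.82. Nkg7 alone held most of this sum in every library, from 127.4 of 143.5 CPM in miR652-KD replicate 4 to 154.5 of 154.6 CPM in NTC replicate 1. For 10 endothelial and stromal genes the sums were 91.7 to 178 and 64.6 to 118 CPM, with Cdh5, Lepr and Pdgfra at 0. Of 6 tested, 5 were below 0, with a median of -0.69 and the endomucin gene Emcn at -0.63.

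The 10 mast cell and basophil genes summed to 12.2 to 35.8 CPM in NTC, against 2.16 to 26.6 CPM in miR652-KD, with Prss34, Gzmb, Mcpt4, Cma1 and Tpsb2 at 0. Of the 2 tested, 1 was above and 1 below 0. Cpa3, the mast cell carboxypeptidase gene, had 19.4 ± 9.88 CPM in NTC, against 5.02 ± 2.91 CPM in miR652-KD (SD, n = 4 each) without overlap, a log2 fold change of -1.95 (SE 0.55; edgeR adjusted p = 0.721). Mcpt8 went the other way, at 0.95 (SE 1.9), with overlapping groups. The most abundant members of the remaining lists did not always lie near their list's median. Elane was at -1.31 (SE 2.59) against a median of -4.18 for neutrophil markers, and Car2 at 0.15 against -2.41 for erythroid markers. Flt3 was at -0.52 against 0.05 for macrophage and dendritic cell markers, of which 4 of 7 tested were above 0, and Cd79b was at -0.10, equal to the median of 3 tested B cell markers. None of these passed the threshold. Csf1r, the M-CSF receptor gene, was at 0 in all 4 NTC libraries and at 0.352 to 8.18 CPM in miR652-KD, too low to test.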
